A study of Mus musculus with 6 samples.

Results

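The genes described here encode the subunits, activators, inhibitor and assembly factors of the proteasome. They are the single-symbol rows of the RNA-seq tables whose symbol starts with Psma, Psmb, Psmc, Psmd, Psme, Psmf or Psmg followed by a digit, and 47 of 22989 rows met this rule, which uses no measured value. Of the 47, 46 are proteasome genes, and Psmc3ip, which encodes a meiotic recombination factor that binds a proteasome ATPase, matched by name only. The genes Psmb5 and Psme3 stand in 2 combined rows with a neighbouring gene and are not among the 47.

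The proteasome is the protease complex that degrades proteins marked with ubiquitin. Its barrel-shaped core has outer rings of alpha subunits, which gate the entrance, and inner rings of beta subunits, some of which carry the catalytic sites. A regulatory particle caps the core: ATPases in its base unfold the substrate and thread it into the core, and its lid removes the ubiquitin chain. In muscle the complex is known as the main route by which myofibrillar proteins are broken down during atrophy.

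The cells were C2C12, an established line of mouse myoblasts with the strain label C3H, and the RNA was polyA-selected. The first group was given the siRNA called siNS and was starved over 4 h in a buffered salt solution (Hank's, with HEPES and antibiotics), and is called the starved library. The second was given siRNA against Foxk1, a forkhead transcription factor, and not starved (the Foxk1 knockdown library). The third was given siNS and not starved (the control library), and all groups had been grown in medium with fetal bovine serum. The design text asks how expression differs from the non-starved control after starvation or after Foxk1 depletion, and ChIP-seq of Foxk1 and Sin3A, the other arm of the series, was not used here.

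Each group has 1 library, so there is no spread between replicates, no test and no p-value, and every difference is between these libraries. Per the file headers, each level is a mean FPKM with a 95% interval made by the authors, given below in parentheses, and read depth is unknown. The median half-width of that interval over the 43 rows of the rule at 5 FPKM or more in the control was 18.1% of the level in the starved, 18.1% in the knockdown and 16.9% in the control library. The word apart is used where the intervals of 2 libraries do not overlap. Foxk1 stood at 16.1 FPKM in the starved, 5.15 FPKM in the knockdown and 9.09 FPKM in the control library, apart from the control in both. The 5 myoblast markers were present in every library and differed in direction. In the starved, Foxk1 knockdown and control libraries Myod1 stood at 10.7, 95.8 and 70.1 FPKM and Myog at 6.02, 45.4 and 14.2 FPKM, both lower apart from the control in the starved library, and Myog higher apart in the knockdown library. Myf5, at 29.6, 17.5 and 16.8 FPKM, was higher apart in the starved library. Des, at 403, 520.0 and 485 FPKM, and Cdh15, at 112, 55.6 and 73.5 FPKM, overlapped the control. The T cell marker Cd3e was listed at 0 in all 3, and the macrophage marker Cd68 lay between 1.26 FPKM, in the Foxk1 knockdown library, and 4.10 FPKM, in the starved library. Together these 5 markers summed to 561, 734 and 659.8 FPKM, and whether their differences bear on the proteasome genes was not tested. In bulk RNA, fewer cells of a type and less RNA per cell cannot be told apart.

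Of the 47 rows, 43 stood at 1 FPKM or more in all 3 libraries and 4 were below 1 FPKM in all 3. The genes below 1 FPKM were Psma8, which encodes a testis alpha subunit, Psmb11, which encodes a thymus beta subunit, and the immunoproteasome genes Psmb8 and Psmb9. Psma8 was listed at 0 in the knockdown and control libraries. The 46 proteasome genes together held 4206 FPKM in the starved, 4176 FPKM in the knockdown and 5171 FPKM in the control library, which is 0.797%, 0.742% and 0.912% of all FPKM. Relative to the control library, this sum was 0.813 times as large in the starved and 0.808 times as large in the knockdown library.

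The core classes had the highest medians. In the control library the 7 expressed alpha genes had a median of 180.1 FPKM, with Psma7 the highest at 306 FPKM and Psma1 the lowest at 98.7 FPKM. The 6 expressed beta genes had a median of 239 FPKM, with Psmb4 the highest at 284 FPKM and Psmb2 the lowest at 151 FPKM. The 9 base genes had a median of 133 FPKM and the 8 lid genes of 100.2 FPKM. The 7 assembly genes had a median of 27.9 FPKM, and every core, base and lid gene at 1 FPKM or more stood above all of them. Within a class the levels were not even: the highest stood 3.10 times above the lowest among the alpha genes, 1.88 times among the beta genes, 2.15 times among the base genes and 2.42 times among the lid genes of the control library. Psma7 stood at 219.6 FPKM (154 to 228) in the starved, 253 FPKM (175 to 260.4) in the Foxk1 knockdown and 306 FPKM (214 to 306) in the control library, and Psmb4 at 233 FPKM (159.6 to 237), 242 FPKM (166 to 248) and 284 FPKM (198 to 284). Of the base genes Psmc1 was the highest in the control library and Psmc4, an ATPase gene, the lowest, at 69.9 FPKM (58.5 to 81.1) in the starved, 68.4 FPKM (55.3 to 80.2) in the Foxk1 knockdown and 91.4 FPKM (74.9 to 107) in the control library. These 3 genes were lowest in 1 of the treated libraries and highest in the control library, with overlapping intervals.

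**Figure D1:**
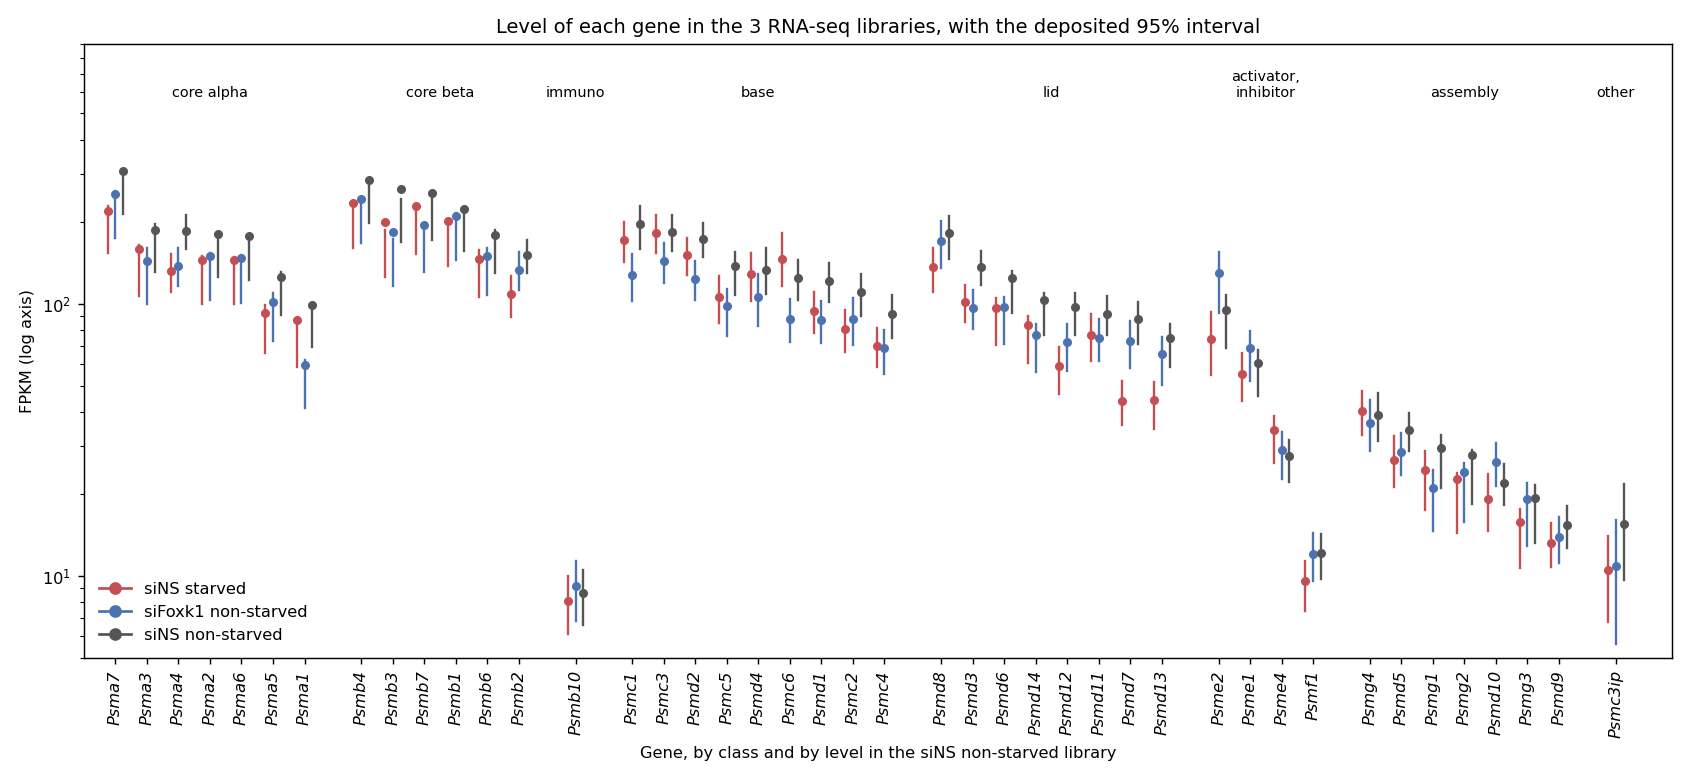
FPKM on a log axis for the 43 expressed genes, grouped by class, with the starved library left, the knockdown library in the middle and the control library right; points are the deposited means and bars the deposited 95% intervals. Core genes lie between 98.7 and 306 FPKM in the control library and assembly genes between 15.3 and 39.0 FPKM, and some points of core genes lie above their own bar.

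In the starved library nearly all of the genes were listed lower than in the control library, by small amounts. Of the 43 expressed rows, 40 had a log2 fold change below 0, where 51.3% of all 11396 rows at 1 FPKM or more and 68.4% of the 1771 rows at 50 FPKM or more lay below 0. Their median log2 fold change, computed as log2((FPKM + 1)/(control FPKM + 1)), was -0.29, against -0.01 for all rows and -0.16 for rows at 50 FPKM or more. Of the 43, 6 were lower with intervals apart, where 10.9% of all rows were, and 0 were higher with intervals apart, where 12.2% of all rows were. A count of 6 in 43 is near that background share. Of the 32 rows of the rule at 50 FPKM or more, 31 lay below 0 and 6 were lower apart, with a median of -0.33. The limit of 50 FPKM applies to the mean of the 2 libraries compared, so a row can lie below it in 1 of them. Among all rows at 50 FPKM or more, 13.7% were lower apart. Of the 43, 3 were lower by 1.5-fold or more, against 9.52% of all rows.

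The lid genes had the lowest median of the classes after starvation, a log2 fold change of -0.42, and are set out here for that reason. Of the 8, 4 were lower apart, where 10.9% of all rows and 13.7% of rows at 50 FPKM or more were. Not all of these calls were kept under other scalings or wider intervals, as given below. Psmd7, a lid subunit that scaffolds the deubiquitinase, stood at 43.9 FPKM (35.9 to 51.8) in the starved library, 72.9 FPKM (58.1 to 86.7) in the Foxk1 knockdown library and 87.6 FPKM (70.9 to 102) in the control library, and its log2 fold change of -0.98 in the starved library was the lowest of the 43. Psmd13 stood at 44.2 FPKM (34.5 to 51.7), 65.2 FPKM (50.3 to 75.3) and 75.0 FPKM (58.6 to 84.2) in the same libraries, and its log2 fold change after starvation was -0.75. Psmd12 stood at 59.2 FPKM (46.4 to 69.4), 72.5 FPKM (56.3 to 84.0) and 97.5 FPKM (76.7 to 109.8), and its log2 fold change after starvation was -0.71. For these 3 lid subunits the starved library was the lowest and the knockdown library lay between it and the control. Psmd3, another structural lid subunit, stood at 101 FPKM (85.3 to 117) in the starved, 96.7 FPKM (81.0 to 112) in the knockdown and 137 FPKM (117 to 156) in the control library, lowest in the knockdown library, and its log2 fold change after starvation was -0.43. Psmd14, the lid deubiquitinase itself, overlapped the control, with 83.3 FPKM in the starved, 76.7 FPKM in the knockdown and 103 FPKM in the control library. Psmd8, the highest lid gene, stood at 136, 169.9 and 181 FPKM with overlapping intervals.

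Among the 13 expressed core genes 1 alpha and 1 beta gene were lower apart in the starved library, where 10.9% of all rows were. Psma4 stood at 131 FPKM (110.4 to 152) in the starved, 138 FPKM (116 to 159.9) in the knockdown and 185 FPKM (158 to 211) in the control library, a log2 fold change of -0.49 after starvation. Psmb2, a non-catalytic beta subunit, stood at 108 FPKM (89.6 to 127), 133 FPKM (112 to 154) and 151 FPKM (129.6 to 172), a log2 fold change of -0.47. All 13 expressed core genes were listed below the control after starvation, with class medians of -0.32 for the alpha and -0.28 for the beta genes. The catalytic genes with rows of their own overlapped the control: Psmb6, which encodes the caspase-like subunit, stood at 146 FPKM (106 to 158) in the starved, 149 FPKM (107 to 159.5) in the knockdown and 178 FPKM (130.1 to 186) in the control library. Psmb7, which encodes the trypsin-like subunit, stood at 228 FPKM (152 to 225), 194 FPKM (130.3 to 194) and 254 FPKM (172 to 246), with each mean above its own upper limit. Pseudogene copies of Psmb6 and Psmb7 are annotated in RefSeq, and reads may be shared with them.

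Base genes had a median of -0.20 in the starved comparison, and 0 of 9 were apart. The ATPase gene Psmc3 stood at 182 FPKM (153 to 211) in the starved, 143 FPKM (119 to 166) in the knockdown and 184 FPKM (156 to 212) in the control library. Psmc6, another ATPase gene, was the only base gene listed above the control after starvation, with 146 FPKM (116 to 181) in the starved and 124 FPKM (103 to 145) in the control library, and its intervals overlapped. When each library was scaled to the same FPKM total, 3 of the 6 genes stayed lower apart in the starved library, namely Psmd7, Psmd12 and Psmd13. With every interval widened by a factor of 1.5, Psmd7 alone did.

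**Figure D2:**
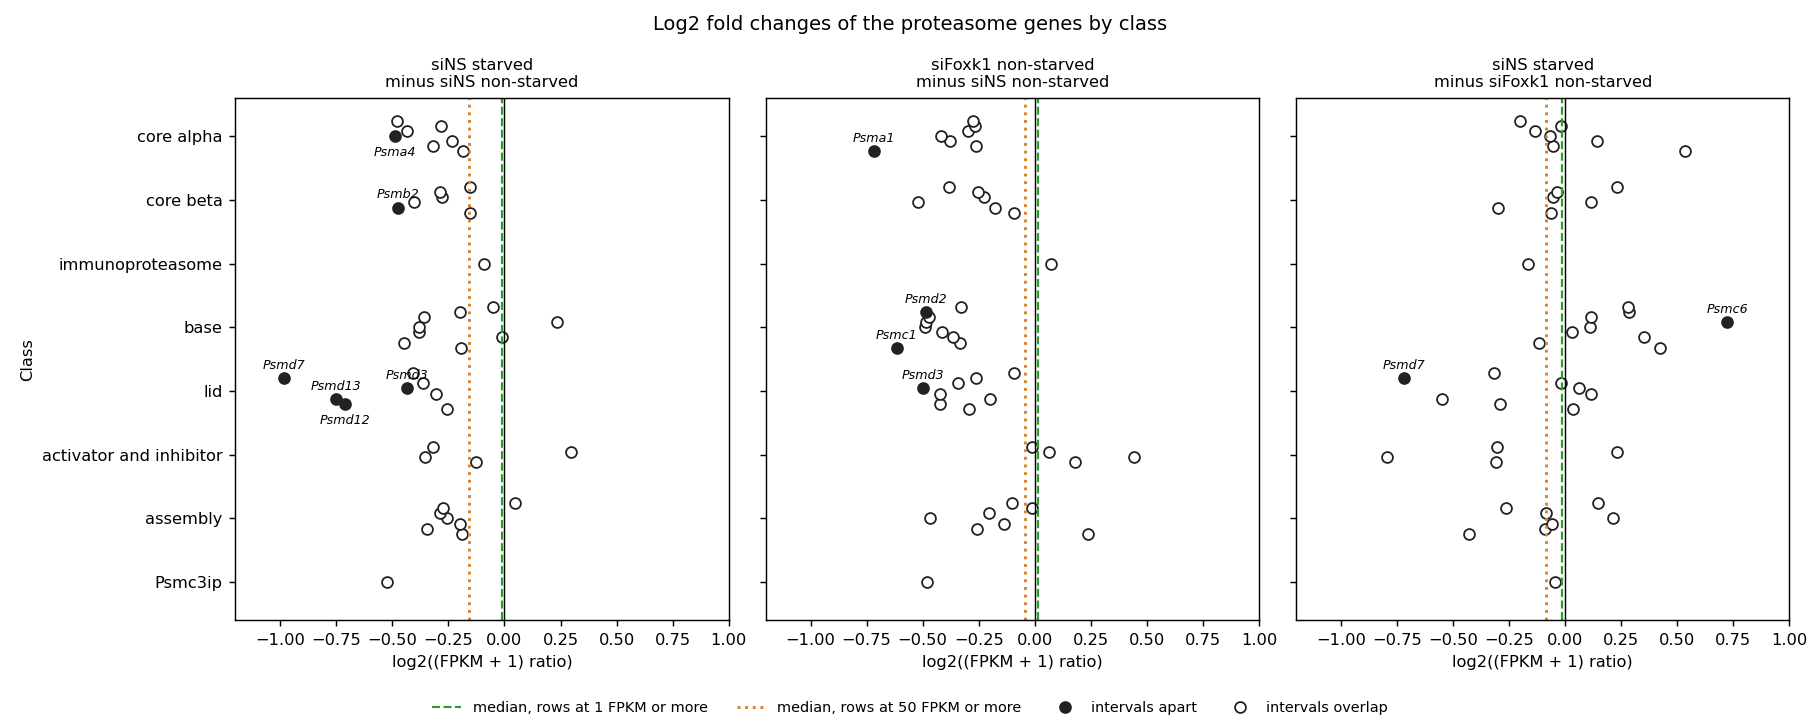
Log2 fold changes of the 43 expressed genes by class for starved minus control, knockdown minus control and starved minus knockdown; filled points have intervals apart, the dashed line is the median of rows at 1 FPKM or more and the dotted line that of rows at 50 FPKM or more. Most points of the first and second panels lie left of both lines, the lid genes reach -0.98 in the first, and the third panel is spread around 0.

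In the Foxk1 knockdown library, core, base and lid genes were also listed lower than in the control library, while the 3 activator genes were listed slightly higher, with overlapping intervals. This comparison uses the same control library as the one above, so its values are given for themselves. Of the 43 rows, 38 had a log2 fold change below 0, where 47.9% of all 11357 rows and 55.7% of the 1846 rows at 50 FPKM or more did. The median was -0.29, against 0.02 for all rows and -0.04 for rows at 50 FPKM or more. Of the 43, 4 were lower apart, where 7.13% of all rows were, and 0 were higher apart, where 8.89% were. That count is again near its background. Of the 32 rows of the rule at 50 FPKM or more, 30 lay below 0 and 4 were lower apart, with a median of -0.34. Among all rows at 50 FPKM or more, 7.37% were lower apart. Lower by 1.5-fold or more were 2 of the 43, against 6.22% of all rows.

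Base genes had the lowest class median after the knockdown, -0.47, and all 9 were listed below the control. Psmc1, an ATPase gene, stood at 171 FPKM (142 to 199) in the starved, 128 FPKM (102 to 152) in the Foxk1 knockdown and 196 FPKM (159 to 228) in the control library, a log2 fold change of -0.62 in the knockdown library. Psmd2, which encodes a large scaffold subunit of the base, stood at 151 FPKM (128 to 174), 123 FPKM (103 to 144) and 173 FPKM (148 to 199), a log2 fold change of -0.49. For both genes the knockdown library was lower apart and the starved library overlapped the control. The other large scaffold gene, Psmd1, had a log2 fold change of -0.47 with overlapping intervals, and Psmd4, which encodes a ubiquitin receptor, one of -0.33.

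Psma1, an alpha gene, had the lowest value of the knockdown comparison, a log2 fold change of -0.72. It stood at 86.7 FPKM (58.6 to 87.7) in the starved, 59.6 FPKM (41.3 to 61.9) in the knockdown and 98.7 FPKM (69.1 to 99.3) in the control library. The other 6 alpha genes lay between -0.42 and -0.26 and the beta genes between -0.52 and -0.09, all with overlapping intervals. The lid genes had a median of -0.32, with Psmd3 lower apart at -0.50. None of the 4 calls was kept when every interval was widened by a factor of 1.5, and with the median ratio of expressed rows set to 1 there were 6, Psma4 and Psmc6 being added.

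The 2 treated libraries share their control, so they were also set against each other directly. Of the 43 rows, 25 were listed lower in the starved than in the knockdown library, where 51.4% of all 11478 rows and 59.2% of the 1795 rows at 50 FPKM or more were, and the median log2 fold change was -0.04, against -0.02 for all rows. Only Psmd7 was lower apart, at -0.72, where 13.7% of all rows were, and only Psmc6 was higher apart, at 0.72, where 13.3% of all rows were. Of the 32 rows of the rule at 50 FPKM or more, 17 were listed lower and 1 was lower apart. Among all rows at 50 FPKM or more, 15.7% were lower apart. Lower by 1.5-fold or more were 2 of the 43 rows, Psmd7 and Psme2, against 13.7% of all rows. Psmc6 stood at 146 FPKM (116 to 181) in the starved and 88.1 FPKM (72.2 to 104) in the knockdown library. Of the 9 base genes, 8 were listed higher in the starved library, with a median of 0.28. In summed FPKM, the base held 0.888 times the control level in the starved and 0.730 times in the knockdown library, and the lid 0.714 times in the starved and 0.809 times in the knockdown library. With all libraries scaled to the same FPKM total, 14 of the 43 rows in place of 25 were listed lower in the starved library. That scaling shifts every gene alike, and under it the median of the 43 rows was 0.04 and that of all rows 0.07.

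Immunoproteasome subunits, which replace the catalytic subunits in immune cells and after interferon, were low or near 0. Psmb10 stood at 8.07 FPKM (6.13 to 9.97) in the starved, 9.16 FPKM (6.82 to 11.3) in the knockdown and 8.66 FPKM (6.57 to 10.5) in the control library. Psmb8 stood at 0.329 FPKM (0.115 to 0.516), 0.473 FPKM (0.229 to 0.717) and 0.222 FPKM (0.0578 to 0.376), and Psmb9 at 0.231 FPKM (0.0435 to 0.392), 0.175 FPKM (0 to 0.348) and 0.381 FPKM (0.132 to 0.614). All 3 overlapped in every pair of libraries. Psmb10 was 3.53% of its constitutive counterpart Psmb7 in the starved, 4.71% in the knockdown and 3.41% in the control library, and Psmb9 was 0.159%, 0.117% and 0.214% of Psmb6. No such ratio is given for Psmb8, whose counterpart Psmb5 shares its row with Mir686.

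The activators open the gate of the core without ATP, and 3 such genes have rows of their own. Psme1, which encodes the alpha subunit of the PA28 activator, stood at 55.2 FPKM (44.0 to 66.1) in the starved, 68.5 FPKM (51.9 to 79.5) in the knockdown and 60.4 FPKM (45.9 to 67.7) in the control library. Psme2, its partner, stood at 74.1 FPKM (54.7 to 93.5), 129 FPKM (92.0 to 154) and 94.97 FPKM (68.8 to 108). The knockdown library was thus the highest for both PA28 genes, with log2 fold changes of 0.18 and 0.44 and overlapping intervals. Psme4, which encodes the large activator PA200, stood at 34.2 FPKM (26.0 to 38.7) in the starved, 28.9 FPKM (22.7 to 33.8) in the knockdown and 27.6 FPKM (22.0 to 31.5) in the control library, the highest log2 fold change after starvation among the 43 rows, 0.30. The inhibitor gene Psmf1 stood at 9.54 FPKM (7.42 to 11.3), 12.03 FPKM (9.53 to 14.4) and 12.2 FPKM (9.73 to 14.2). None of these 4 genes was apart in any pair of libraries. Between the starved and the knockdown library Psme2 had the lowest log2 fold change of the 43 rows, -0.79, with overlapping intervals.

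Assembly factors, which help to build the complex and leave it again, were also not apart in any pair. The chaperones of the alpha ring, Psmg1 and Psmg2, stood at 24.5 FPKM (17.4 to 28.7) and 22.6 FPKM (14.3 to 23.8) in the starved library, 21.0 FPKM (14.6 to 24.5) and 24.1 FPKM (15.7 to 26.0) in the Foxk1 knockdown library and 29.5 FPKM (20.9 to 33.0) and 27.9 FPKM (18.4 to 29.1) in the control library. Psmg3 stood at 15.7 FPKM (10.7 to 17.6), 19.1 FPKM (12.9 to 22.0) and 19.3 FPKM (13.2 to 21.5), and its partner Psmg4 at 40.3 FPKM (32.8 to 47.8), 36.3 FPKM (28.6 to 44.1) and 39.0 FPKM (31.2 to 46.9). Psmg4 was listed slightly above the control in the starved library and the other 3 below it. The base chaperones were also listed below the control in the starved library. Psmd5 stood at 26.7 FPKM (21.1 to 32.7) in the starved, 28.4 FPKM (23.5 to 33.3) in the knockdown and 34.2 FPKM (28.7 to 39.7) in the control library. Psmd9 stood at 13.2 FPKM (10.8 to 15.6), 13.8 FPKM (11.2 to 16.4) and 15.3 FPKM (12.6 to 18.0), and Psmd10, also known as gankyrin, at 19.1 FPKM (14.6 to 23.7), 26.1 FPKM (21.4 to 30.8) and 22.0 FPKM (18.2 to 25.7). Psmc3ip, the recombination gene, stood at 10.5 FPKM (6.77 to 14.05), 10.8 FPKM (5.62 to 16.1) and 15.5 FPKM (9.63 to 21.7), also overlapping.

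The deposited intervals of the core genes were unlike those of most rows, which bears on which genes could be called apart. For all 8693 rows at 5 FPKM or more in the control, the median position of the mean within its interval was 50.1% of the way from the lower to the upper limit in the starved, knockdown and control libraries. For the 13 core genes it was 90.1%, 91.3% and 100.1% in the same libraries. The mean lay above its own upper limit in 2, 2 and 7 of the 13, against 3.62%, 2.81% and 3.67% of all rows. The core genes off centre were 11 of 13, each more than 70% of the way up in all 3 libraries, where 12.3%, 9.74% and 12.3% of all rows were. Psma4 and Psmb2, both apart after starvation, were the centred pair of the core. Outside the core, 2 of 8 lid, 3 of 7 assembly and 0 of 9 base genes lay above 70% in the control library. With intervals of the same width centred on the mean, Psma7 was also lower apart in the starved library and Psmb3 in the knockdown library. Between the starved and the knockdown library, Psme2 was then also lower apart and Psma1 higher apart. The files do not say how the limits were made.

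**Figure D3:**
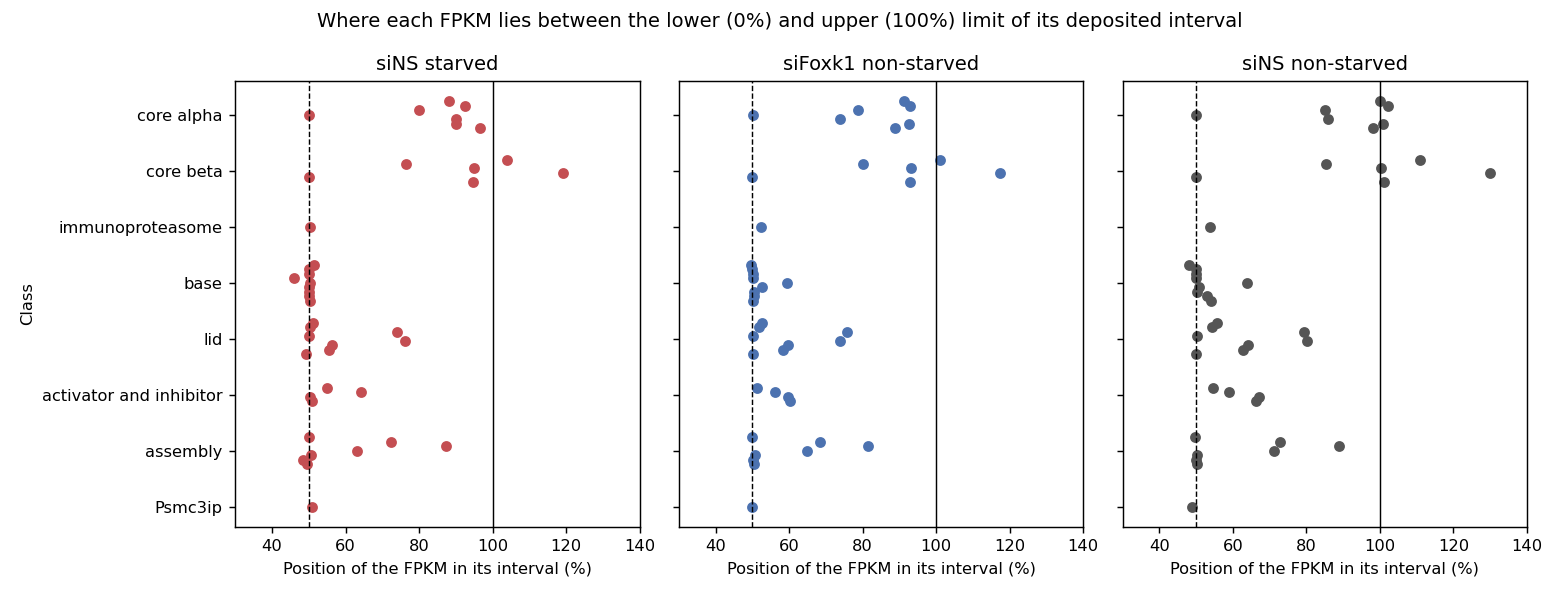
Position of the mean FPKM within its deposited 95% interval for the 43 expressed genes, by class, with 0% at the lower and 100% at the upper limit, in the starved, knockdown and control libraries. Base genes cluster near 50%, while 11 of 13 core genes lie above 70% in each library and 7 lie above 100% in the control library. Some lid and assembly genes also lie above 70%.

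Promoter windows from RefSeq (build GRCm38.p6, 250 bases before to 50 after the start) were found for 39 of the 47 genes. Of the 10 genes that were apart in any pair of libraries, 7 had an entry, and their windows are shown. Psmb2, Psmd3 and Psmd7 were apart but had no entry. They include Psmd7, the gene with the lowest log2 fold change after starvation. Capitals mark 4 motifs on either strand: TGACNNNGC, the core of the antioxidant response element, CCAAT, the box bound by NF-Y, CCGGAAG, an ETS core, and TGTTTAC, a forkhead motif. Sequences run 5' to 3' on the gene's strand.
Lower apart in the starved library:
Psma4, chr9:54950609-54950908, plus strand: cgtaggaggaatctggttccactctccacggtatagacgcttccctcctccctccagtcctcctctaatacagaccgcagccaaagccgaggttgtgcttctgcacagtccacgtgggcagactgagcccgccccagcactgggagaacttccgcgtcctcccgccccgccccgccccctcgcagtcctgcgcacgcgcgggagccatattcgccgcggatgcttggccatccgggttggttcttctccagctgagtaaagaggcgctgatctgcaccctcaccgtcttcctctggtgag
Psmd12, chr11:107479278-107479577, plus strand: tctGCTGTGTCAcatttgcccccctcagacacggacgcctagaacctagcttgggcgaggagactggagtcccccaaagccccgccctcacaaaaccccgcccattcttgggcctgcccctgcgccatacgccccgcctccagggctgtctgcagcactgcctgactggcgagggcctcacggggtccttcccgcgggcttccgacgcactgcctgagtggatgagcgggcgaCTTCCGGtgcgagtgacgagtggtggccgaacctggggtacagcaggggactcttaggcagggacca
Psmd13, chr7:140882144-140882443, plus strand: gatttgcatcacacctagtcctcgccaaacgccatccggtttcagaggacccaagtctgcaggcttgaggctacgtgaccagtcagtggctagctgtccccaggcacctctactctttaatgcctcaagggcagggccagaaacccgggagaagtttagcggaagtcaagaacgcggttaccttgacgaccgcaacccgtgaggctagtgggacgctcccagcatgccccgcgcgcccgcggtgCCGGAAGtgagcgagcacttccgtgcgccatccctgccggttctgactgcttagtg
Lower apart in the knockdown library:
Psma1, chr7:114276067-114276366, minus strand: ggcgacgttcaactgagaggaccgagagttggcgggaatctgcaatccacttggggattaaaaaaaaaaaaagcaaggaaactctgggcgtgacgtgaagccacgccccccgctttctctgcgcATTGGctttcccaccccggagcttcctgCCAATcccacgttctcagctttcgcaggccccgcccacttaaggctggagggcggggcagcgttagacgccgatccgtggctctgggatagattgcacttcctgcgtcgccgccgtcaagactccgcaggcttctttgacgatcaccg
Psmc1, chr12:100109952-100110251, plus strand: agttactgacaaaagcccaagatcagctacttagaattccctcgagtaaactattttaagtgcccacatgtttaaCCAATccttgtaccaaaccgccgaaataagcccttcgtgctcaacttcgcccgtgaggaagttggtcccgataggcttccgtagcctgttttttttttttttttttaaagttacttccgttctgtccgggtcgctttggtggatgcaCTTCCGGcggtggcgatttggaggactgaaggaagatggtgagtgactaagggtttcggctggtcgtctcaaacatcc
Psmd2, chr16:20651402-20651701, plus strand: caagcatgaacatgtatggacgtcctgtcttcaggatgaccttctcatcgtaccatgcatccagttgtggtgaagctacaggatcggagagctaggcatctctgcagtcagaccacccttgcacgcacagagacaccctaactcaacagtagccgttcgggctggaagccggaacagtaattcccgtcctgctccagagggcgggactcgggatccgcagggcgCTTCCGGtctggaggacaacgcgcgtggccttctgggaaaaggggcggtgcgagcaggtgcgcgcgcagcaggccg
Higher apart in the starved than in the knockdown library:
Psmc6, chr14:45329574-45329873, plus strand: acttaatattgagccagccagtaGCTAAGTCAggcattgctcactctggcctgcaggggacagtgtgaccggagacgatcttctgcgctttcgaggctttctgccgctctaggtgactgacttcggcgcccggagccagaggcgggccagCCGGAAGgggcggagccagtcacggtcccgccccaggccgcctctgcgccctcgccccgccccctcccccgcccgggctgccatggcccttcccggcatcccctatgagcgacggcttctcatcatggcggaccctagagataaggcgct

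The antioxidant core was held by 5 of the 39 promoters (12.8%), those of Psmb6, Psmc6, Psmd9, Psmd12 and Psme4, against 14.8% of 17492 protein-coding genes with windows of the same length. The CCAAT box was held by 14 (35.9%) against 42.3%. The ETS core was held by 14 (35.9%), among them 5 of the sequences above, against 12.9%, and the forkhead motif by 0 of 39 against 3.45%. The 17492 genes were not limited to those expressed in these cells. Each gene counted once if any of its windows held the motif. A match is a description of letters in these windows and not a site, and no match says only that the letters are not in them.

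The rest of the ubiquitin pathway was read from lists of companion genes, whose counts stand beside the shares of all rows given above. Which companion genes are apart was not recomputed with other intervals or scalings. Ubiquitin and its activating enzymes gave 0 of 6 genes apart in either comparison, with a median of -0.06 after starvation and 0.01 after the knockdown. The polyubiquitin gene Ubb stood at 348 FPKM (292 to 404) in the starved, 348 FPKM (278 to 414) in the knockdown and 319 FPKM (259 to 371) in the control library. Its intervals overlapped in all pairs.

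Among 17 genes for receptors, deubiquitinases, shuttles and assembly at the proteasome, 2 were lower apart in each comparison, where 10.9% of all rows were after starvation and 7.13% after the knockdown, and 0 were higher apart. A count of 2 in 17 is near the first share. The list had a median of -0.16 after starvation and -0.17 after the knockdown. Lower apart after starvation were Adrm1, a ubiquitin receptor in the base, with 81.9 FPKM (68.6 to 95.2) in the starved and 125 FPKM (104 to 145) in the control library, and Pomp, which encodes the maturation chaperone of the core, with 137 FPKM (87.4 to 131) in the starved and 208 FPKM (133 to 192) in the control library, both means above their own limits. Lower apart after the knockdown were the deubiquitinase gene Uchl5, with 14.1 FPKM (11.3 to 17.0) in the knockdown and 26.1 FPKM (21.5 to 30.7) in the control library, and the ubiquitin ligase gene Ube3c, with 16.7 FPKM (13.2 to 19.8) in the knockdown and 26.2 FPKM (21.0 to 30.2) in the control library. Uchl5 and its receptor Adrm1 act together at the base, and each was apart from the control in a different comparison. Adrm1 was also listed lower in the knockdown library, at 94.0 FPKM (76.3 to 111) and a log2 fold change of -0.41. Its interval there overlapped those of both other libraries. Uchl5 stood at 24.9 FPKM (19.7 to 31.3) in the starved library, which overlapped the control. The 9 genes of the p97 segregase, which pulls ubiquitinated proteins out of complexes, had 1 gene apart in each direction after starvation. Nsfl1c, a p97 cofactor gene, stood at 68.4 FPKM (50.7 to 75.9) in the starved and 95.7 FPKM (77.1 to 118) in the control library, and Ubxn7, another, at 13.6 FPKM (9.20 to 13.7) and 5.81 FPKM (4.24 to 6.17). After the knockdown 0 of the 9 were apart.

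Nfe2l1 encodes a transcription factor known to raise proteasome genes when proteasome activity falls. It stood at 117 FPKM (95.9 to 137) in the starved, 87.4 FPKM (70.8 to 104) in the knockdown and 59.4 FPKM (48.8 to 70.01) in the control library. Both treated libraries were higher apart, with log2 fold changes of 0.96 and 0.55, while the proteasome genes had medians of -0.29 in both. Of the 9 listed genes of its route, Bach1, a repressor at antioxidant elements, was the other gene apart, at 18.0 FPKM (14.3 to 21.4) in the starved and 11.4 FPKM (9.38 to 13.5) in the control library. The related factor gene Nfe2l2 overlapped, at 74.4, 72.3 and 58.7 FPKM in the starved, knockdown and control libraries. Protein levels and activity were not measured.

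The genes Psmb9, Tap1, Psmb8 and Tap2 follow each other on the RefSeq assembly, and the Tap genes encode the peptide transporter of antigen presentation. Tap2 stood at 7.66 FPKM (6.34 to 8.99) in the starved, 4.65 FPKM (3.75 to 5.55) in the knockdown and 4.59 FPKM (3.76 to 5.41) in the control library. Tap1 stood at 1.47 FPKM (1.13 to 1.82), 0.498 FPKM (0.316 to 0.685) and 0.486 FPKM (0.322 to 0.658). Both transporter genes were higher apart in the starved library, where their neighbours Psmb8 and Psmb9 overlapped the control. Of the 10 antigen presentation and interferon genes that passed 1 FPKM in this comparison, 4 were higher apart, where 12.2% of all rows were, but Tap1, Irf7 and Ifit1 passed through the starved library only and so had to be higher. Of the other 7, only Tap2 was higher apart. Irf7, an interferon regulatory factor gene, stood at 1.52 FPKM (1.08 to 1.96) in the starved, 0.452 FPKM (0.220 to 0.697) in the Foxk1 knockdown and 0.349 FPKM (0.136 to 0.562) in the control library, and Ifit1, an interferon-induced gene, at 1.25 FPKM (0.891 to 1.61), 0.0853 FPKM (0.0133 to 0.146) and 0.308 FPKM (0.174 to 0.429). After the knockdown 1 of 7 was higher apart, where 8.89% of all rows were. It was B2m, which encodes the light chain of class I molecules, at 447 FPKM (367 to 527) in the knockdown and 348 FPKM (220.2 to 316) in the control library, where the mean exceeded its limit. The control interval thus lies below its own mean and the knockdown interval does not, and the call was not recomputed with centred intervals.

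The genes of 2 other large cytosolic complexes also had medians below 0. Beside them, rows at 50 FPKM or more had medians of -0.16 after starvation and -0.04 after the knockdown, and all rows -0.01 and 0.02. The 9 genes of the COP9 signalosome, a relative of the lid, had a median of -0.15 after starvation and -0.22 after the knockdown with 0 apart in either. The 8 genes of the CCT chaperonin, which folds actin and tubulin, had medians of -0.21 and -0.35, with 0 apart in the starved comparison and Cct6a lower apart in the knockdown comparison, with 159.8 FPKM (135 to 184) in the Foxk1 knockdown and 218 FPKM (188 to 248) in the control library. The proteasome medians of -0.29 in both lay beside these values, and the difference between the complexes was not tested.

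**Figure D4:**
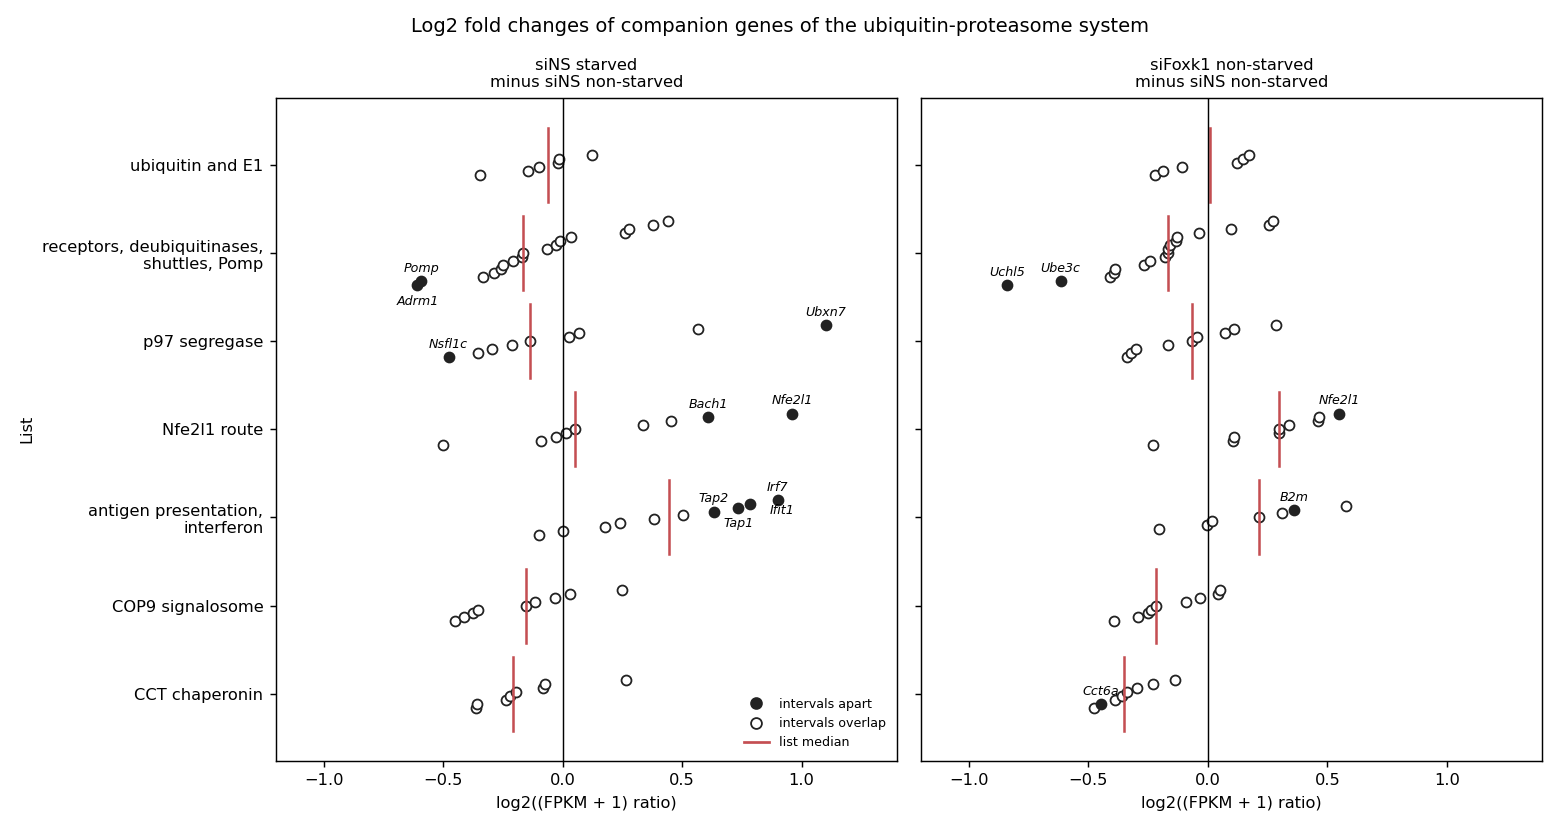
Log2 fold changes of companion genes by list, for starved minus control (left) and knockdown minus control (right); filled points have intervals apart and red lines are list medians. Nfe2l1 lies at 0.96 and 0.55, and the medians of the COP9 and CCT complexes lie left of 0 in both panels.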

How the data were processed

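RNA was measured in 3 libraries of C2C12 myoblasts, 1 per group, with groups taken from the sample titles. Per the file headers, the authors deposited a mean FPKM and the limits of a 95% interval for each gene symbol. Build mm9 and the tools Cuffdiff, Cufflinks (2.1.1), Bowtie2 (2.1.0) and TopHat2 (2.0.9) are named in the submitters' processing notes, without their roles. Not given in the sources used here were the annotation, the options, how the limits were made and whether replicates were pooled. FPKM holds no read counts, so the depth cannot be known and no count test applies.

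1 row whose limits were in the wrong order was left out. Comparisons were limited to rows that reached 1 FPKM in either library of the pair. Rows at 50 FPKM or more are those whose mean over the pair reached 50 FPKM. Fold changes use a pseudocount of 1 FPKM, which understates the change of low genes. Values are printed for catalytic, activator, inhibitor and assembly genes, for genes apart in any pair of libraries, and for the highest and lowest of a class. Companion genes are named where apart from the control library, at most 6 per list, with Nfe2l1 and Foxk1; the choice of Psmc3, Psmd1, Psmd4, Psmd14, Ubb and Nfe2l2 was made with their values in view. The members, lists and thresholds were chosen with earlier results of these data known. Paralogs and pseudogene copies of several members may share reads, and how such reads were assigned is not stated. Of the companion lists, 6 of 6 ubiquitin, 17 of 18 receptor, 9 of 9 p97, 9 of 11 Nfe2l1 route, 13 of 15 antigen presentation, 9 of 9 COP9 and 8 of 8 CCT genes had a single row. Endothelial, epithelial and adipocyte markers summed to under 1 FPKM in each library, and of 3 neuron markers Tubb3 alone exceeded 1 FPKM, at 52.6 FPKM in the starved, 68.3 FPKM in the knockdown and 89.7 FPKM in the control library. The regions of the ChIP-seq lists are on mm9 and were not used. One blood and immune marker is not reported here. Pseudocounts, filters, library scalings and the intervals were varied as alternatives. Scripts were tested on simulated data and ran in Python 3.11.15 with numpy 2.4.6, pandas 2.3.3 and matplotlib 3.10.9.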

Additional observations from a re-analysis of the deposited data

How the results depend on the processing

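The medians of the 43 rows stayed within 0.1 of their values under these alternatives: a pseudocount of 0.1 or 5 FPKM, no filter or one of 5 FPKM, libraries scaled to the same FPKM total, the median ratio of expressed rows set to 1, proteasome genes only, and a filter of 50 FPKM chosen after seeing the data. In place of 43 rows, no filter gave 47, proteasome genes only gave 42 and the filter of 50 FPKM gave 32. With libraries scaled to the same total, the starved median was -0.19 in place of -0.29, which only just kept within 0.1. The median between the 2 treated libraries, -0.04, was 0.04 under that scaling, which also moved the starved median of all rows to 0.08. Counts of genes apart depended on the intervals and the scaling. In the starved comparison, 6 genes lower apart became 3 with libraries scaled to the same total and 1 with intervals widened by a factor of 1.5. In the knockdown comparison, 4 became 0 with widened intervals and 6 with the median ratio set to 1. Between the starved and the knockdown library, 1 lower and 1 higher became 0 and 0 with widened intervals and 2 and 2 with intervals centred on the mean, an alternative chosen after seeing the data; with libraries scaled to the same total, 2 were higher and 14 in place of 25 rows lay below 0. Of the companion lists, the starved median of antigen presentation genes, 0.44, was 0.23 with a pseudocount of 5 FPKM. Both medians include Tap1, Irf7 and Ifit1, which passed the filter through the starved library only and so had to be higher. With libraries scaled to the same total, the starved median of COP9 was -0.052 and that of CCT -0.10. In all, 186 of 198 recomputed summaries were counted as kept, and no gene apart between libraries changed its direction. Medians had to stay within 0.1, while counts could differ by a factor of up to 1.5, so 4 against 6 passed. Many of the 198 could not change. The pseudocount does not enter the intervals, and widening or centring the intervals does not enter the fold changes. Psmd3 was also no longer apart after starvation with the median ratio set to 1. No paired analysis was possible because each group has 1 library, and with 1 library a group no replicate could be left out.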

Other observations

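The genes Psmb5 and Psme3 have no row of their own. The row that joins Psmb5, the gene of the chymotrypsin-like catalytic subunit, with Mir686 stood at 414 FPKM (109 to 1060) in the starved, 503 FPKM (123 to 1491) in the knockdown and 591 FPKM (168 to 1299) in the control library, with intervals too wide to compare. The row that joins Psme3, the gene of the nuclear activator PA28 gamma, with Aoc2 stood at 36.8 FPKM (28.7 to 44.7) in the starved, 63.3 FPKM (49.7 to 76.3) in the knockdown and 68.3 FPKM (54.6 to 79.4) in the control library. Its log2 fold change was -0.87 after starvation, with intervals apart, and -0.11 after the knockdown, with intervals overlapping. Which of the 2 genes carries these reads was not tested.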
